A study of Mus musculus with 18 samples.

Results

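*Runx1*, *Runx2*, *Runx3* and *Cbfb* encode the core binding factors: 3 Runx proteins that bind DNA through their Runt domain, and their common partner CBFβ. These 4 genes of the 45706 listed per library were chosen by symbol, after *Runx1* had been noted as rising with ibrutinib in single peptide stimulated cells. The study examined whether ibrutinib, a kinase inhibitor that targets BTK, acts directly on exhausted CD8+ T cells. OT-I cells are CD8+ T cells of mice carrying a transgenic T cell receptor for a peptide of ovalbumin. Splenic OT-I cells met this peptide with IL-7 and IL-15, either daily and then onward to the end (repeat peptide stimulated, the *in vitro* exhausted cells) or only at the start (single peptide stimulated). From day 5 to day 8 they were kept with 1 µM ibrutinib or the solvent DMSO, and live cells were lysed for polyadenylated RNA on day 8.

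The 18 libraries were divided by peptide and treatment. Repeat peptide cells gave 4 libraries with DMSO and 5 with ibrutinib, and single peptide cells 5 with DMSO and 4 with ibrutinib. The strain entry reads wild type for all libraries, and the genotype entries were read as names of 6 experiments, lettered A to F. The entries of B to E, which cover most libraries and all 4 groups, name a *Btk* knockout, and whether any of these cells lacked *Btk* could not be settled from the labels. Experiments A to D gave a library to every group, E only repeat peptide cells with ibrutinib and F only single peptide cells with DMSO. Nothing in the labels gives the age or sex of the mice or says whether animals were pooled, so the p-values measure the spread between these cultures. In the fits, libraries were not paired by experiment unless a replicate block is named, so this spread includes that between experiments. Total expected counts ranged from 23445922 to 51995372 with a median of 27420966. The 6 markers of CD8+ T cells (*Cd3d*, *Cd3e*, *Cd3g*, *Cd8a*, *Cd8b1* and *Trac*) were present in every group. Their summed normalized counts were at least 76784, while 4 B cell markers summed to at most 175 and 5 myeloid markers to at most 161. The 3 NK cell markers summed to 3055 to 16593, nearly all from *Klrd1*, which CD8+ T cells also express, and the 3 CD4 T cell markers to 149 to 1193.

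Runx proteins act as heterodimers: CBFβ does not touch the DNA but raises the affinity of the Runt domain and protects the Runx protein from ubiquitin-dependent degradation. Depending on partners they repress, through Groucho/TLE proteins, SIN3A and NCOR, or activate, through p300, CBP and related acetyltransferases. In T cells Runx1 is important in thymic development and in silencing *Cd4* in immature cells, and Runx3 in keeping *Cd4* and *Zbtb7b* silent and in driving the cytotoxic programme of CD8+ T cells. Runx2, best known for bone formation, also takes part in memory CD8+ T cells.

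All members lie on the autosomes of GRCm38, the build the files use. *Runx1* (ENSMUSG00000022952) occupies chr16:92601466-92826149 on the minus strand, *Runx2* (ENSMUSG00000039153) chr17:44495987-44814797 on the minus strand, *Runx3* (ENSMUSG00000070691) chr4:135120652-135177990 on the plus strand and *Cbfb* (ENSMUSG00000031885) chr8:105170674-105217989 on the plus strand. The Runx genes are each read from a distal and a proximal promoter. RefSeq promoter windows, 250 bases before to 50 bases after a start, were found for all 4 members, 6 windows in all (GRCm38.p6). The stretches below are shown because the distal windows of the 3 Runx genes hold the same pair of Runx motifs, whereas neither proximal window nor that of *Cbfb* holds the motif. Capitals mark the motif ACCACA, which reads TGTGGT on the other strand. Each line is the strand of the gene, 5′ to 3′.
*Runx1*, chr16:92826025-92826054, minus strand: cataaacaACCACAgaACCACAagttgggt
*Runx2*, chr17:44814583-44814612, minus strand: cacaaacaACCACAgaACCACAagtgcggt
*Runx3*, chr4:135120503-135120532, plus strand: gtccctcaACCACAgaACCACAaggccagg
The pair lies at bases 29 to 42 after the start in *Runx1*, at bases 24 to 37 after the start in *Runx2*, and from 134 to 121 bases before it in *Runx3*. The 2 bases between the motifs are the same in all 3 genes. A single ACCACA on either strand occurs in 16.8% of the 32851 mouse promoter windows. The pair ACCACANNACCACA on either strand occurs in 7 of them, or 0.0213%. The other 4 belong to *Gm15462*, *Gm16225*, *Olfr24* and *Gm12236*, of which the *Gm16225* window overlaps that of *Runx3*. These matches describe letters, not occupied sites.

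*Runx3* and *Cbfb* were the abundant members and *Runx1* the scarce one. In TPM, the deposited level per transcript length, which allows genes to be set side by side, *Cbfb* ranged from 55.9 to 128, *Runx3* from 32.4 to 109, *Runx2* from 7.47 to 22.0 and *Runx1* from 0.76 to 10.5 over the 18 libraries. *Runx3* exceeded *Runx2*, and *Runx2* exceeded *Runx1*, in 18 of 18 libraries. *Cbfb* exceeded *Runx3* in 13 of 18, so the order of these neighbours was not fixed. *Cbfb* stood above *Runx3* in all libraries of repeat peptide cells with DMSO, with mean TPM of 103 ± 16.7 and 72.8 ± 7.72 (SD, n = 4), and below it in 4 of 5 libraries of single peptide cells with DMSO, with means of 75.0 ± 4.25 and 89.5 ± 19.1 (SD, n = 5).

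**Figure D1:**
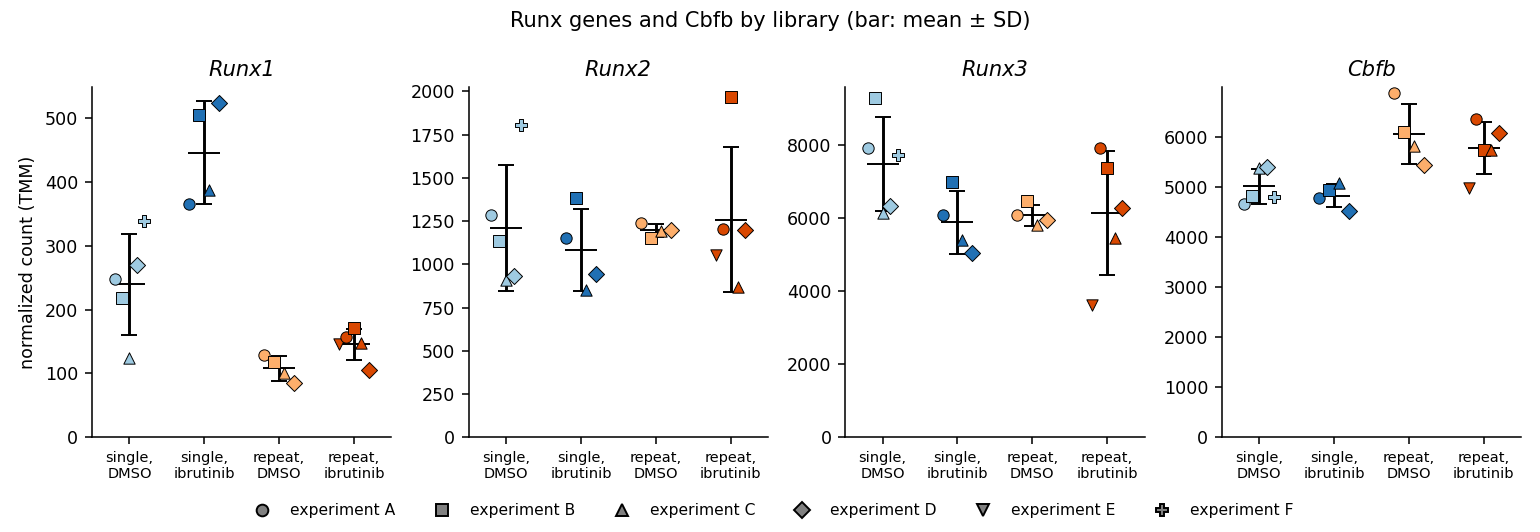
Normalized counts (TMM, vertical axes from 0) of the 4 members in each of the 18 libraries by group, with mean and SD as bars and a marker shape for each experiment. *Runx1* sits between 365 and 524 in the single peptide libraries with ibrutinib, above all others, and the lowest *Cbfb* value of repeat peptide cells with DMSO, 5443, is above every single peptide library.

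*Runx1*, the gene whose behaviour led to this set, had its highest counts in single peptide cells with ibrutinib. Its normalized counts (counts scaled by TMM to the mean library) were 365, 505, 388 and 524 in experiments A to D of that group. In single peptide cells with DMSO they were 248.5, 217, 124, 269 and 339 in experiments A, B, C, D and F. The groups did not overlap. The fitted log2 fold change was 0.89 ± 0.227 (SE), or 1.86-fold, and within experiments A to D the rise was 1.47-, 2.31-, 3.10- and 1.94-fold. This is the difference for which *Runx1* was noted, so it is a description and was not tested. In that comparison 3.04% of the 12255 tested genes were called and 6.39% had groups that did not overlap, and 1114 genes were called with the replicate block against 373 without.

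In repeat peptide cells *Runx1* was lower and the ibrutinib difference smaller. Normalized counts were 129, 118, 100 and 84.3 with DMSO in experiments A to D. With ibrutinib they were 158, 171, 148, 105 and 146 in experiments A, B, C, D and E. The groups overlapped, since the ibrutinib library of experiment D lay below the DMSO libraries of A and B, but the ibrutinib library was the higher one in all 4 experiments with both, by 1.22-, 1.44-, 1.46- and 1.24-fold. These libraries were not used in noting *Runx1*, and edgeR's quasi-likelihood test gave a log2 fold change of 0.43 ± 0.236 (SE) with a 95% interval from -0.07 to 0.92 and an adjusted p of 0.304 (Benjamini-Hochberg over all tested genes). The rise therefore did not pass the threshold, and with the experiment as a block the adjusted p was 0.221. To be called, a gene needed an adjusted p under 0.05, a mean of 50 or more normalized counts and a log2 fold change beyond 0.2 in either direction. By this rule 5.92% of genes were called with ibrutinib in repeat peptide cells, 4.01% higher and 1.92% lower, and 10.1% had groups that did not overlap. With the replicate block 1694 genes were called, against 726 without.

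Repeat peptide cells had lower fitted *Runx1* counts than single peptide cells, but with DMSO this held on counts and not per length. The log2 difference of repeat minus single was -1.15 ± 0.238 (SE) with DMSO and -1.62 ± 0.23 with ibrutinib. In TPM the means with DMSO were 4.51 in repeat and 4.12 in single peptide cells, and with an offset for effective length the log2 difference was 0.04. With ibrutinib the groups did not overlap on counts, at 105 to 171 against 365 to 524, in a comparison where 34.3% of tested genes did not overlap. With DMSO the *Runx1* groups overlapped, because the single peptide library of experiment C had a normalized count of only 124. All these comparisons share libraries with the one that led to *Runx1*, so no test is given. The difference of the ibrutinib effects, repeat minus single, was -0.47 with a 95% interval from -1.15 to 0.22, likewise untested. In these bulk samples fewer cells of a kind and less RNA per cell cannot be told apart. The summed normalized counts of the 4 B cell markers (*Ms4a1*, *Cd79a*, *Cd79b* and *Pax5*) moved the same way, at 30.6 to 47.9 in repeat peptide cells with DMSO, 20.5 to 86.1 in repeat peptide cells with ibrutinib, 70.7 to 175 in single peptide cells with DMSO and 82.4 to 166 in single peptide cells with ibrutinib. *Cd79b* carried nearly all of these sums, with group means of 37.4, 56.0, 111 and 125, while the other 3 markers each averaged at most 2.02. *Cd79a* was at 0 in all repeat peptide libraries with DMSO, *Ms4a1* in all those with ibrutinib, and *Ms4a1* and *Pax5* in all single peptide libraries with DMSO. Their part in the *Runx1* values was not tested.

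The estimated division of *Runx1* reads among its transcripts differed widely between libraries, on only 79 to 539 expected counts per library. RSEM, which estimates counts per transcript, deposits for each gene a length weighted by the transcripts it found. For *Runx1*, with 7 annotated transcripts of 336 to 5861 bases, this length ran from 835 to 5861 bases over the 18 libraries, a 7.02-fold range, against 1.81-fold for *Runx2*, 1.27-fold for *Runx3* and 1.04-fold for *Cbfb*. It was 4392, 835, 1431 and 1079 bases in repeat peptide cells with DMSO (experiments A to D). It was 5355, 2773, 5173, 3291 and 4593 bases in repeat peptide cells with ibrutinib (A, B, C, D and E). The single peptide libraries with DMSO gave 1297, 5685, 5861, 1864 and 5656 bases (A, B, C, D and F), and those with ibrutinib 3716, 3749, 5420 and 5692 bases (A to D). The value of 5861 equals the length of Runx1-201, the transcript from the distal start. The transcripts Runx1-202, Runx1-203 and Runx1-205 begin 128821, 130024 and 130654 bases further downstream, in the proximal region, and are 4738, 1985 and 716 bases long.

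**Figure D2:**
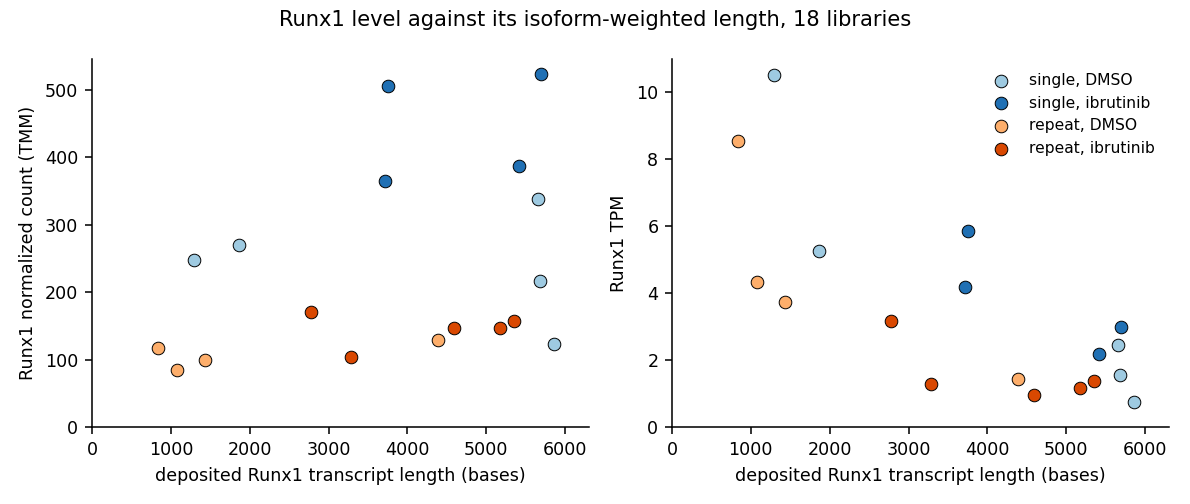
Normalized count (left) and TPM (right) of *Runx1* against its deposited, isoform-weighted length in bases, one point per library and colour by group. Libraries with short lengths have high TPM at ordinary counts: the repeat peptide library with DMSO of experiment B combines 835 bases, a normalized count of 118 and a TPM of 8.53.

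The mean length was 4237 bases with ibrutinib and 1934 with DMSO in repeat peptide cells, a difference of 2303 bases. The two-sided exact permutation test gave p = 0.0476 (n = 5 and 4) and an adjusted p of 0.286 over 12 length tests, so the difference did not pass the correction. The length was greater with ibrutinib in 4 of 4 experiments (paired exact permutation p = 0.125, the smallest that 4 pairs can give). The groups overlapped, as the DMSO library of experiment A, at 4392 bases, lay within the ibrutinib range. This length bears on every level per length of *Runx1*: expected counts behind it were only 79 to 188 in repeat peptide libraries and 97 to 539 in single peptide libraries. In TPM the order of the repeat peptide groups turned round, with 4.51 ± 2.95 (SD, n = 4) for DMSO and 1.59 ± 0.895 (SD, n = 5) for ibrutinib. With an offset for effective length in the fit, the ibrutinib difference in repeat peptide cells became -1.46 on the log2 scale (adjusted p = 0.157, edgeR) and that in single peptide cells became -0.01. For *Runx3* in repeat against single peptide cells with DMSO the length was 3781 against 3413 bases (exact permutation p = 0.0159, adjusted p = 0.19), and the other 10 comparisons had adjusted p values of 0.286 or more.

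*Runx2* showed no difference that passed the test in any of the 4 comparisons in which it was tested. With DMSO, repeat peptide cells had normalized counts of 1241, 1153, 1193 and 1199 (experiments A to D), the tightest group of the set. With ibrutinib they had 1207, 1967, 867, 1199 and 1051 (A, B, C, D and E). The ibrutinib libraries spanned more than the whole DMSO range, upward in experiment B and downward in C and E. Single peptide cells with DMSO had 1282, 1134, 910, 930 and 1803 (A, B, C, D and F), and those with ibrutinib had 1155, 1381, 849 and 942 (A to D). All groups overlapped. The log2 fold change with ibrutinib in repeat peptide cells was 0.07 (95% interval -0.38 to 0.53, adjusted p = 0.886 by edgeR). It was -0.02 (-0.47 to 0.44, adjusted p = 0.95) for repeat against single peptide with DMSO and 0.22 (-0.24 to 0.68, adjusted p = 0.441) with ibrutinib. The value in single peptide cells, given without a test, was -0.16.

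*Runx3*, the Runx factor of cytotoxic T cells, had close mean levels in the repeat peptide groups, with a far wider spread under ibrutinib. Normalized counts with DMSO were 6088, 6473, 5807 and 5942 (experiments A to D). With ibrutinib they were 7915, 7383, 5465, 6275 and 3634 (A, B, C, D and E). The library of experiment E was the lowest of all 18 and that of A among the highest. Single peptide cells with DMSO had 7922, 9296, 6129, 6320 and 7731 (A, B, C, D and F), and with ibrutinib 6092, 7001, 5398 and 5035 (A to D). The ibrutinib library was the lower one in all 4 experiments of single peptide cells, by a ratio of 0.769, 0.753, 0.881 and 0.797, while in repeat peptide cells the ratios were 1.3, 1.14, 0.941 and 1.06.

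The fitted log2 fold change of *Runx3* with ibrutinib was 0.01 in repeat peptide cells (95% interval -0.35 to 0.38, adjusted p = 0.974 by edgeR) and, untested, -0.35 in single peptide cells. The difference of these effects was 0.36 ± 0.248 (SE, adjusted p = 0.67), and with the experiments paired by a replicate block it was 0.47 ± 0.121 (adjusted p = 0.0328), past the threshold. Only that 1 of 26 alternatives called it, and no other of them paired the libraries. Its fit called 679 genes, against 154 without the block. Repeat against single peptide with DMSO gave -0.30 (-0.67 to 0.07, adjusted p = 0.159), and with the replicate block -0.27 ± 0.0857 (adjusted p = 0.0132), which was called. With the effective length offset this difference was also called, at -0.45 (adjusted p = 0.0248). Only these 2 of 18 alternatives called it, and of the 18 only the replicate block paired the libraries. The adjusted p over them all ran from 0.0132 to 0.364 (edgeR or DESeq2). Within experiments A to D the repeat peptide library with DMSO had 0.769, 0.696, 0.948 and 0.94 times the *Runx3* level of the single peptide library. In this comparison 47% of all genes were called without the block. With ibrutinib the difference between repeat and single peptide was 0.06 (-0.31 to 0.43, adjusted p = 0.804).

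**Figure D3:**
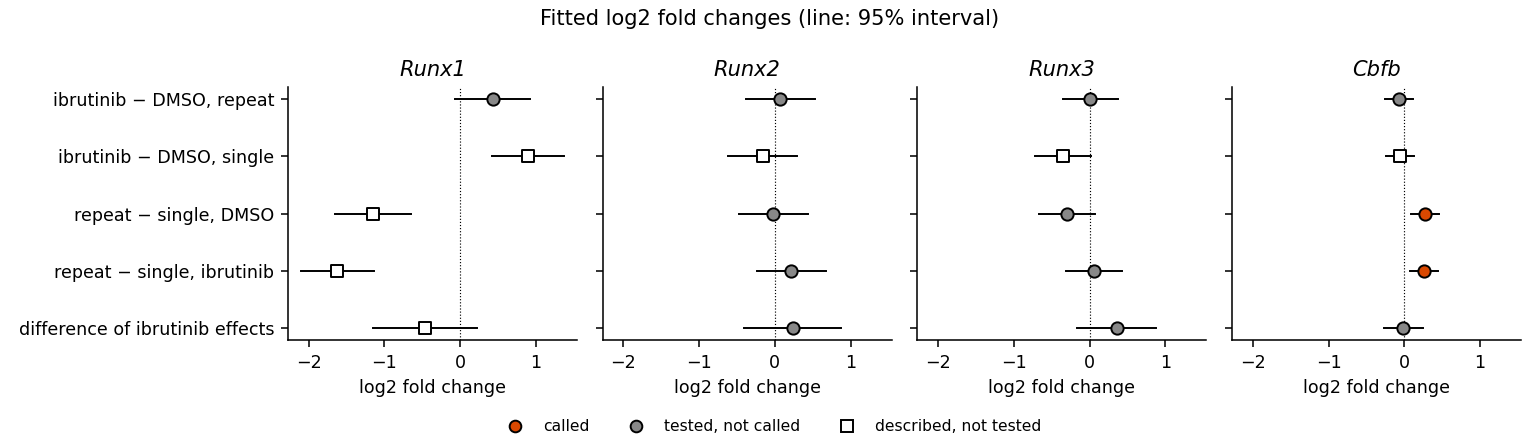
Fitted log2 fold changes of the 4 members (points) with 95% intervals (lines) in the 5 comparisons, open squares marking values described without a test. *Cbfb* is the one member called, in both comparisons of repeat with single peptide cells, at 0.27 and 0.26.

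*Cbfb*, the common partner, was higher in repeat than in single peptide cells and was not called with ibrutinib. Normalized counts were 6882, 6107, 5827 and 5443 in repeat peptide cells with DMSO (experiments A to D). They were 4664, 4819, 5391, 5409 and 4812 in single peptide cells with DMSO (A, B, C, D and F). These groups did not overlap, although the lowest repeat peptide library exceeded the highest single peptide library by few counts, both from experiment D. The summed NK cell markers moved with *Cbfb*, at 7325 to 9467 against 3207 to 5143, as did the summed CD4 T cell markers, at 840 to 1193 against 149 to 737. Nearly all of the CD4 T cell sum in repeat peptide cells came from *Zbtb7b*, also listed as a gene repressed by Runx. *Zbtb7b* had 831 to 1189 normalized counts against 78.7 to 247, while *Cd4* averaged 1.69 against 0. *Foxp3*, the remaining marker, did not move this way. In the single peptide library whose sum reached 737, *Zbtb7b* and *Cd4* left most of that sum to *Foxp3*. The part of these markers in the *Cbfb* values was not tested. The log2 difference of *Cbfb* was 0.27 ± 0.0873 (SE), or 1.21-fold, with an adjusted p of 0.0133 by edgeR, and *Cbfb* was called. Calls are common in this comparison: 47% of genes were called, 22.8% higher and 24.2% lower, and 41.4% did not overlap. Without the repeat peptide library with DMSO of experiment A the difference was 0.21 with an adjusted p of 0.0621 and the call was lost.

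With ibrutinib *Cbfb* counts were 6369, 5750, 5737, 6084 and 4988 in repeat peptide cells (A, B, C, D and E) and 4779, 4939, 5076 and 4531 in single peptide cells (A to D). The library of experiment E fell within the single peptide range. The difference was 0.26 ± 0.0879 (SE), or 1.2-fold (adjusted p = 0.023), and in the 4 experiments with both libraries the repeat peptide library was 1.33, 1.16, 1.13 and 1.34 times as high. In this comparison 38.4% of genes were called, 18.7% higher and 19.6% lower, and 34.3% had groups that did not overlap. The call was lost without the repeat peptide library with ibrutinib of experiment D, at 0.24 and an adjusted p of 0.0534, and without the filter on low counts, with an adjusted p of 0.0582. Ibrutinib against DMSO gave -0.07 in repeat peptide cells (95% interval -0.25 to 0.12, adjusted p = 0.702) and, untested, -0.05 in single peptide cells.

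The make-up of the Runx transcripts showed no difference past the threshold between treatments in repeat peptide cells. *Runx3* made up 79.0 ± 2.82% of the summed Runx TPM with DMSO (SD, n = 4) and 82.3 ± 3.06% with ibrutinib (SD, n = 5). *Runx2* made up 15.96 ± 1.10% and 15.9 ± 2.57%, and *Runx1* 5.00 ± 3.25% and 1.83 ± 0.575%. Within the 4 experiments with both libraries the *Runx3* share was higher with ibrutinib in 4 of 4 and the *Runx1* share lower in 4 of 4. None of these shares differed past the threshold in a two-sided exact permutation test (126 splits, n = 5 and 4, adjusted p over 5 measures of 0.397, 0.937 and 0.397). Paired within experiments, the exact permutation p was 0.125 for *Runx3* and *Runx1*, the smallest that 4 pairs can give. The sum itself was 91.9 ± 6.90 TPM with DMSO and 89.3 ± 36.4 TPM with ibrutinib, with the lowest library, at 41.4, from experiment E. When scaled counts took the place of TPM, the fall of the *Runx1* share became a rise and the rise of the *Runx3* share a fall. The shares add up to the whole, so their directions are not independent of each other.

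The ratio of *Cbfb* to summed Runx TPM was 1.12 ± 0.1015 in repeat peptide cells with DMSO (SD, n = 4) and 1.09 ± 0.203 with ibrutinib (SD, n = 5; exact permutation test, adjusted p = 0.937). It was 0.7165 ± 0.116 in single peptide cells with DMSO (SD, n = 5) and 0.943 ± 0.105 with ibrutinib (SD, n = 4), given as values. Every library of repeat peptide cells with DMSO, at 1.036 to 1.255, lay above every library of single peptide cells with DMSO, at 0.602 to 0.863. On scaled counts in place of TPM these ranges nearly met, at 0.7534 to 0.9228 against 0.4526 to 0.7527. Separation is common between these groups, as 41.4% of tested genes did not overlap.

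**Figure D4:**
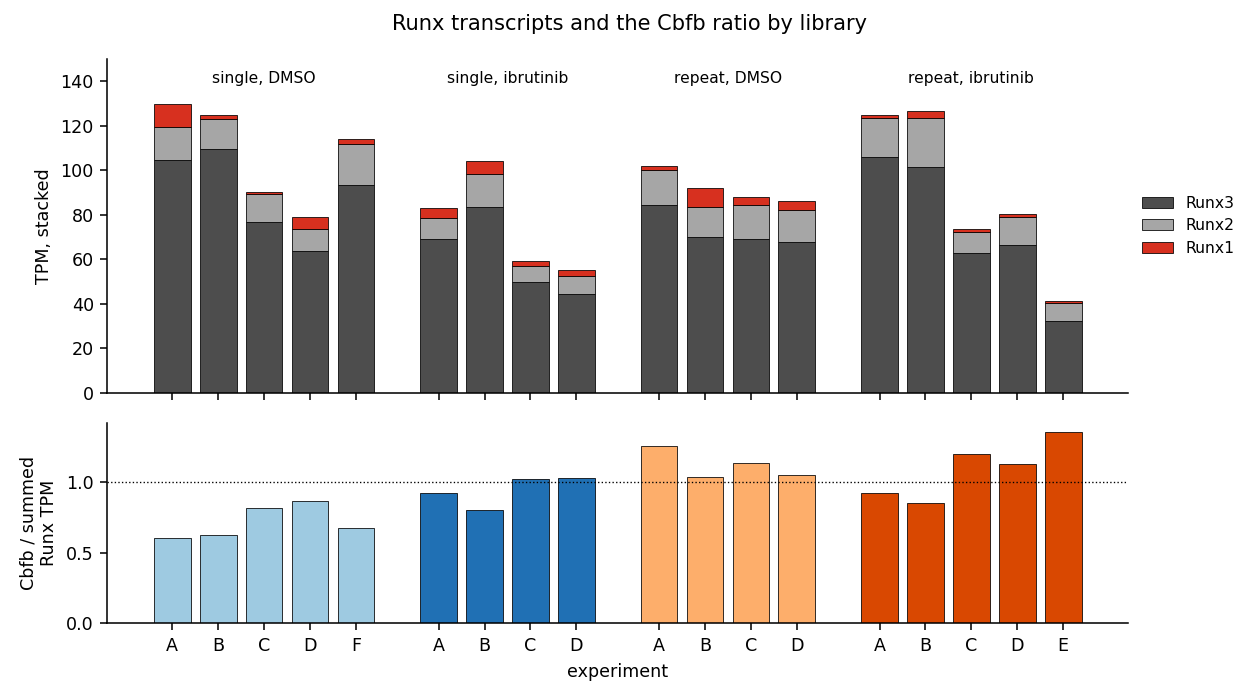
Stacked TPM of the 3 Runx genes (top) and ratio of *Cbfb* TPM to their sum (bottom, dotted line at 1) in every library, ordered by group and experiment. *Runx3* fills most of each bar, and the ratio is 0.863 or less in the single peptide libraries with DMSO and above 1 in the repeat peptide libraries with DMSO.

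Other genes of the pathway were taken from 5 lists of 55 genes, of which 47 could be tested. The counts of corepressors, coactivators and modifiers called with ibrutinib are to be read against the genes called in repeat peptide cells by the same fit. These were 5.92% of all genes, or 726 of 12255, by edgeR without a block. With the replicate block 1694 genes were called, and with DESeq2 1154. In repeat peptide cells 0 of 12 tested corepressors were called by edgeR (1 at an unadjusted p under 0.05, 0 called by DESeq2), and the median log2 fold change was -0.03 against 0.00 over all genes. With the replicate block 1 corepressor, *Suv39h1*, was called lower. Of 9 coactivators and partners on DNA only *Lef1*, an HMG box factor that bends DNA beside Runx sites, was called, 0.62 higher (adjusted p = 0.00942, edgeR), and *Kmt2a* joined it with the replicate block. Of 12 modifiers and ubiquitin ligases acting on Runx proteins 0 were called (2 at an unadjusted p under 0.05, 1 by DESeq2), and 2 with the replicate block, *Hipk2* and *Smurf1*, both higher.

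More of these regulators differed between repeat and single peptide cells, in a comparison where 47% of all genes did. With DMSO 3 of 12 corepressors were higher and 4 lower. *Suv39h1*, a histone H3 lysine methyltransferase, was 0.87 higher and *Hdac1*, a histone deacetylase, 0.60 higher, while the Groucho-family *Tle1* was 0.91 lower and *Tle3* 0.46 lower on the log2 scale. The *Tle3* call was lost without the repeat peptide library with DMSO of experiment B or D or the single peptide library with DMSO of B or F, with adjusted p values from 0.0593 to 0.138. It was also lost with the effective length offset (adjusted p = 0.0591, edgeR). Among the 9 coactivators and partners 1 was higher, *Yap1*, which binds Runx proteins through its WW domain, at 4.15 (single peptide libraries with DMSO had only 1 to 26 counts), and 6 were lower. The lower ones included *Lef1* at -1.55, *Kmt2a*, the H3K4 methyltransferase MLL1, at -0.87, and *Crebbp*, the acetyltransferase CBP, at -0.67.

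Of the modifiers 3 were higher and 3 lower in repeat than in single peptide cells with DMSO. *Cdk1*, which phosphorylates Runx proteins in mitosis, was 1.81 higher and *Cdc20*, which directs the anaphase-promoting complex to Runx1, 1.51 higher. The kinase *Hipk2* had a log2 difference of -1.52 and the ubiquitin ligase *Smurf1* one of -1.44. With ibrutinib in both arms, where 18.7% of all genes were called higher and 19.6% lower, the counts were 2 higher and 2 lower corepressors, 1 and 5 coactivators and partners, and 3 and 3 modifiers. The leading genes there were *Tle1* at -1.15, *Suv39h1* at 0.79, *Hdac1* at 0.52, *Ncor1* at -0.36, *Yap1* at 3.54 (4 to 18 counts per single peptide library), *Lef1* at -1.12, *Kat6b* at -0.82, *Crebbp* at -0.62, *Cdk1* at 2.47, *Cdc20* at 2.13, *Smurf1* at -1.22 and *Hipk2* at -0.85. The *Ncor1* call was lost without the single peptide library with ibrutinib of experiment A (adjusted p = 0.0843, edgeR). It was also lost with the effective length offset (adjusted p = 0.0579) and with only the compared groups fitted (adjusted p = 0.0549).

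Some genes known as Runx targets were called with ibrutinib in repeat peptide cells, in both directions, in a comparison where 5.92% of all genes were called, 4.01% higher and 1.92% lower. Of 6 tested genes known to be repressed by Runx in CD8+ T cells, 3 were called and all 3 were higher. *S1pr1*, the receptor that lets T cells leave lymphoid tissue, rose by 2.07 ± 0.235 (SE, adjusted p = 4.86e-05, edgeR), with 435.5 to 1227 normalized counts in the DMSO libraries and 2171 to 4165 in the ibrutinib libraries. *Klf2*, a factor that drives *S1pr1*, rose by 1.42 ± 0.232 (adjusted p = 0.00107), and *Tcf7*, which encodes TCF1, by 0.93 ± 0.204 (adjusted p = 0.00965). A fit of the repeat peptide libraries alone did not call *Tcf7* (adjusted p = 0.0508, edgeR). The median of the list was 0.96, against 0.00 over all genes. *Zbtb7b*, the CD4-lineage factor silenced by Runx3, had a value of -0.46 (adjusted p = 0.241), and *Cd4* and *Il4* were too low to test.

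Of 8 tested genes known to be activated by Runx in T cells, 1 was called higher and 3 lower, with a median of -0.63. *Itgae*, the αE integrin CD103, rose by 3.14 ± 0.661 (SE, adjusted p = 0.00759). Its DMSO libraries had only 20 to 208 counts. The groups overlapped, at 15.0 to 205 normalized counts with DMSO and 194 to 1497 with ibrutinib. *Ifng* had a log2 fold change of -1.78 ± 0.492 (adjusted p = 0.036), *Prf1*, encoding perforin, -1.47 ± 0.317 (adjusted p = 0.00849), and *Gzmb*, encoding granzyme B, -1.12 ± 0.251 (adjusted p = 0.011). *Eomes* was at 1.37 ± 0.448 (adjusted p = 0.0743) and was called higher by DESeq2. DESeq2 thus called 2 higher and 3 lower, beside 1154 called genes in all. *Cd8a* and *Cd8b1* did not pass the test, at -0.14 and 0.21. The *Ifng* call was lost when any of 5 libraries was left out, the repeat peptide libraries with DMSO of C or D or with ibrutinib of A, B or C (adjusted p from 0.0566 to 0.155). The *Gzmb* call was lost without the repeat peptide library with DMSO of experiment D (-0.88, adjusted p = 0.0671). Both lists are of genes regulated by many other factors as well, and were not chosen independently of earlier results.

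**Figure D5:**
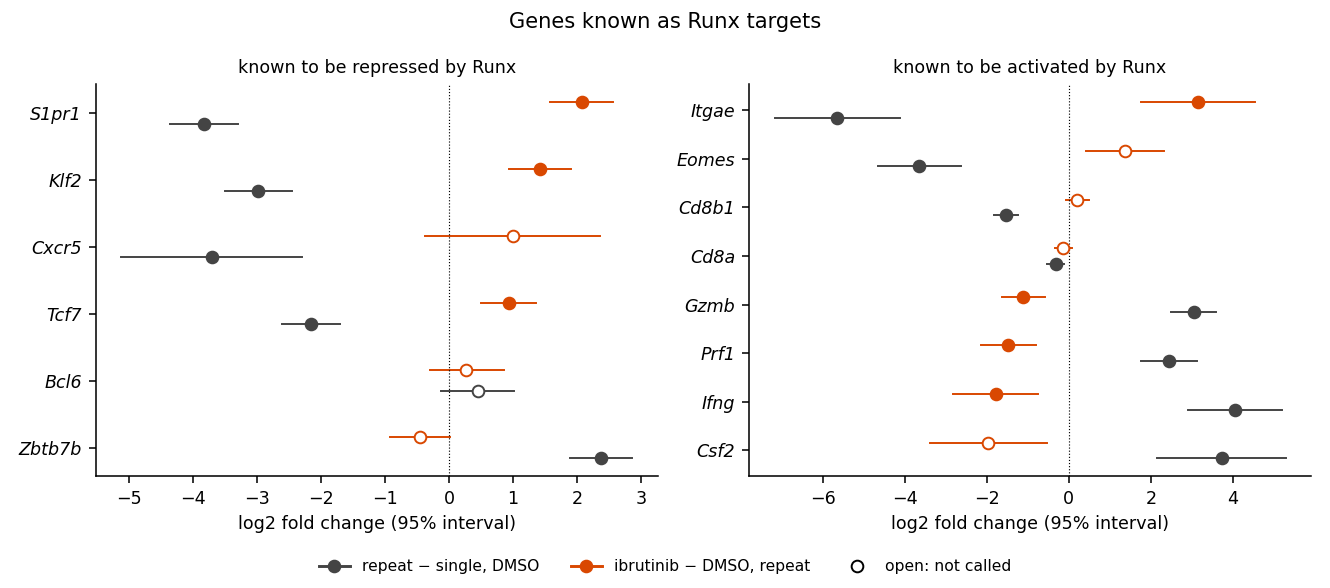
Log2 fold changes with 95% intervals of tested genes known to be repressed (left) or activated (right) by Runx, for repeat against single peptide with DMSO (grey) and for ibrutinib against DMSO in repeat peptide cells (orange), filled where called. *S1pr1* stands at -3.83 and 2.07 and *Gzmb* at 3.04 and -1.12. The comparisons share the 4 repeat peptide libraries with DMSO.

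Between repeat and single peptide cells with DMSO, where 47% of all genes were called, 22.8% higher and 24.2% lower, 4 of the 6 genes known to be repressed were lower and 1 higher. *S1pr1* was at -3.83, *Cxcr5* at -3.71 (9 to 25 counts per repeat peptide library) and *Klf2* at -2.98, and *Zbtb7b* at 2.37. All 8 genes known to be activated were called, 4 in each direction. They were led by *Itgae* at -5.65 (20 to 208 counts per repeat peptide library), *Ifng* at 4.04 (5 to 80 counts per single peptide library), *Csf2* at 3.72 and *Eomes* at -3.64. With ibrutinib in both arms 1 and 4 of the 6, and 3 and 4 of the 8, were higher and lower, beside 38.4% of all genes called. There *Cxcr5* stood at -2.63 (14 to 46 counts per repeat peptide library), *S1pr1* at -2.20, *Klf2* at -1.93 and *Zbtb7b* at 1.85. *Ifng* stood at 4.77 (2 to 15 counts per single peptide library), *Csf2* at 4.39 (1 to 5 counts per single peptide library), *Gzmb* at 3.33 and *Itgae* at -3.00. These comparisons with DMSO and the ibrutinib comparison in repeat peptide cells share their DMSO libraries, so opposite signs are in part fixed by that.

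In single peptide cells 4 of the 47 list genes were called with ibrutinib, all lower. Background calls were 0.351% higher and 2.69% lower. The called list genes were *Ifng* at -2.51, *Gzmb* at -1.41, *Cdk1* at -1.06 and *Cdc20* at -0.98 on the log2 scale. *Ifng* had only 5 to 80 counts per single peptide library with DMSO and 2 to 15 with ibrutinib. Its mean normalized counts there were 46.1 and 7.99, against 756 and 219 in repeat peptide cells with DMSO and ibrutinib. The mean count of the calling rule was taken over all libraries, and *Ifng* reached its minimum only through the repeat peptide libraries. None of the 6 genes known to be repressed was called by edgeR (0 at an unadjusted p under 0.05, 0 by DESeq2). With the replicate block 7 list genes were called, adding *Tle1* and *Prf1* as higher and *Suv39h1* as lower. That fit called 1114 genes in all, against 373 without the block. The *Ifng* call was lost when any library but the single peptide library with DMSO of B was left out (adjusted p from 0.0566 to 0.18). Those of *Cdk1* and *Cdc20* were each lost without any of 6 libraries: A, C or D with DMSO, or A, B or D with ibrutinib (adjusted p from 0.0526 to 0.171).

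The ibrutinib effect differed between repeat and single peptide cells for 3 of the 47 list genes, where 1.26% of genes were called, 1.04% higher and 0.212% lower (679 genes with the replicate block against 154 without). *S1pr1* rose more in repeat peptide cells, by 1.63 ± 0.316 (SE, adjusted p = 0.011, edgeR). *Eomes*, a T-box factor of memory and exhausted CD8+ T cells, had a difference of 2.56 ± 0.62 (adjusted p = 0.0468), and *Prf1* one of -1.91 ± 0.45 (adjusted p = 0.0419). The *Eomes* difference was not called with the replicate block, at 2.25 and an adjusted p of 0.0812, whereas 6 list genes were called in that fit. When libraries were left out in turn, the *Eomes* call was lost in 13 of 18 cases, all but B of repeat peptide with DMSO, A, C and D of repeat peptide with ibrutinib and B of single peptide with DMSO. The *Prf1* call was lost in 14 of 18, all but A and B of repeat peptide with DMSO, C of repeat peptide with ibrutinib and F of single peptide with DMSO. The differences stayed between 2.13 and 3.15, and between -2.31 and -1.70. *Runx2* (0.24, adjusted p = 0.876) and *Cbfb* (-0.01, adjusted p = 0.988) were not called.

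Across the 18 libraries the genes most like each member in log2 CPM (counts scaled to library size) are given as a description. They share libraries, depth and the group differences. For *Runx1* these were *Rrm2b*, a ribonucleotide reductase subunit (Pearson r = 0.951), *Zfp60*, a zinc finger gene (0.937), and *Slc25a51*, a mitochondrial NAD+ carrier (0.936). After the group means were removed, their correlations were 0.872, 0.643 and 0.712. For *Runx2* they were *Ern1*, the endoplasmic reticulum stress sensor IRE1α (0.841), *Kctd13* (0.806) and *Vps37c* (0.804). For *Runx3* they were *Cntrl*, a centriole protein (0.911), *Smarcc2*, a BAF remodelling subunit (0.910), and *Scaf4* (0.898). *Smarcc2* and *Cntrl* remained the closest to *Runx3* within groups, at 0.967 and 0.938. For *Cbfb* they were *Nudt4* (0.921), the DNA damage ubiquitin ligase *Rnf168* (0.920) and the nuclear envelope gene *Nrm* (0.916).

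Among the members themselves *Runx1* and *Cbfb* ran in opposite directions, with r = -0.705 over 18 libraries. Within groups the value was -0.082, so it lay in the group means. *Runx2* and *Runx3* had r = 0.504, and 0.566 within groups. The genes lie on different chromosomes. Of the genes that overlap the members on the opposite strand, *Gm26626* at *Runx1* and *Gm16224* at *Runx3* had 0 counts in all libraries, *Runx2os1* at *Runx2* had at most 49 counts and *Supt3* at *Runx2* 113 to 606. The libraries were strand-specific.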

How the data were processed

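RNA-seq of OT-I cells was quantified by the authors with STAR in RSEM on GRCm38 and Ensembl 81. They deposited, per gene, expected counts (estimated counts, not whole numbers), TPM scaled by the authors to a fixed total, and isoform-weighted and effective lengths in bases. The submitters' processing notes name RSEM 1.3.1 and DESeq2 1.30.0.

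Expected counts were rounded. Of 45706 genes, 45143 matched GENCODE M21, and the 27903 protein-coding or lncRNA genes entered. All 4 groups were fitted together in edgeR 4.0.16 (filterByExpr, 12255 genes tested, TMM, glmQLFit robust, glmQLFTest) under R 4.3.3. Shares and lengths were compared by exact permutation (scipy 1.17.1). Code was tested on simulated data. Alternatives used DESeq2 1.42.0, other filters and normalization, a replicate block, a length offset and each library left out.

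The members and lists were chosen with earlier results of these data known. Named genes were the members, up to 4 called genes of each list and comparison with the largest fold change, and the 3 genes best correlated with each member (log2 CPM, prior count 2). Of the 55 list genes, *Runx1t1*, *Spi1*, *Cd4*, *Il4* and *Il3* were too low, *Trbc1* and *Trbc2* are of another gene type and *Prmt1* had no match by symbol. Experiments come from the genotype entries and pair the libraries: all 24 same-experiment pairs of deviations from group means correlated above 0.1 (0.160 to 0.494), and the other 97 had a median of -0.0765. No library was a copy of another. At this depth counting error matters mainly for *Runx1* and low list genes. One listed B cell marker is not reported here.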

Additional observations from a re-analysis of the deposited data

Results flagged for a closer look

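Of 68 sets of values checked (counts, TPM, lengths, shares and ratios of a group), 4 held a library standing far from the rest of its group. Chance alone would mark about 1 in 20. In repeat peptide cells with DMSO the library of experiment A had the longest *Runx1* length, at 4392 bases, the shortest *Runx3* length, at 3625 bases, and the highest *Runx3* TPM, at 84.3. In repeat peptide cells with ibrutinib the library of experiment B had the highest *Runx1* TPM, at 3.17. The same library had the shortest *Runx1* length of its group. Ibrutinib effects differed between repeat and single peptide cells in edgeR's interaction test for *S1pr1* (1.63, adjusted p = 0.011), *Eomes* (2.56, adjusted p = 0.0468) and *Prf1* (-1.91, adjusted p = 0.0419).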

How the results depend on the processing

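Every named list gene kept its direction under all alternatives. The number of called genes depended on the fit. With the replicate block it was 1694 for ibrutinib in repeat peptide cells, 1114 in single peptide cells and 679 for the difference of these effects. With DESeq2 these counts were 1154, 617 and 353. With only the compared groups fitted, the first 2 were 458 and 188. At a log2 fold change above 1 they were 237 and 202, and for repeat against single peptide 1994 under DMSO and 1461 under ibrutinib, with 18 and 17 list genes. In that setting *Cbfb*, at 0.27 and 0.26, was past the threshold in neither. Leaving out libraries gave 355 to 873 called genes in repeat peptide cells (355 without the DMSO library of experiment D, 393 without that of C and 476 without the ibrutinib library of A), 131 to 390 in single peptide cells (131, 205 and 152 without the ibrutinib library of A, B or D, and 198 and 239 without the DMSO library of C or D) and 84 to 171 for the difference (84 without the repeat peptide DMSO library of C and 90 without the single peptide ibrutinib library of D). Called list genes in single peptide cells numbered 1 without the filter on low counts, 7 with the replicate block, 2 with all gene types and 1 to 4 with libraries left out. For the difference of effects they numbered 1 without the filter, 6 with the block and 1 to 5 with libraries left out.

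With the effective length offset *Runx1* was at -1.46 with ibrutinib in repeat peptide cells, -0.01 in single peptide cells, -1.46 for the difference of effects and 0.04 for repeat against single peptide with DMSO, *Runx2* was at -0.02 with ibrutinib in repeat peptide cells, and *Runx3* was at -0.45 for repeat against single peptide with DMSO. With the replicate block *Runx2* was at 0.19 and *Runx3* at -0.27 in the latter comparison, and for the difference of effects *Runx3* was at 0.47 and *Cbfb* at 0.05. No other call of a member changed with the block. The *Cbfb* difference of effects was near 0 throughout, at 0.00 with DESeq2 or its size factors, 0.01 without the filter and -0.04 to 0.05 with libraries left out. Without the filter *Cbfb* was at 0.27 for repeat against single peptide with ibrutinib.

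With libraries left out, *Runx2* ranged from -0.14 to 0.18 and *Runx3* from -0.08 to 0.15 with ibrutinib in repeat peptide cells. For repeat against single peptide with DMSO *Runx2* ranged from -0.10 to 0.17 and *Cbfb* from 0.21 to 0.32, and with ibrutinib *Runx3* ranged from -0.02 to 0.20 and *Cbfb* from 0.24 to 0.31. The adjusted p of *Runx1* in repeat peptide cells was 0.157 to 0.542 over its alternatives. On scaled counts the ibrutinib differences in repeat peptide cells were 0.5799 percentage points for the *Runx1* share, 0.6925 for *Runx2*, -1.272 for *Runx3* and 155.9 counts for the sum. In TPM the difference of the sum was 9.4 with the replicate block and -11.95 to 9.4 with libraries left out, that of the *Runx2* share -0.9749 to 0.6142 and that of the *Cbfb* ratio -0.09218 to 0.03209. Differences in length between repeat and single peptide cells, with libraries left out, were -27.92 to 2.207 bases for *Cbfb* and -18.33 to 331.2 for *Runx2* with DMSO, and -117.1 to 0.995 for *Runx3* and -429.7 to 35.74 for *Runx2* with ibrutinib. Paired by a replicate block, an alternative chosen after seeing the data, the *Runx3* length difference with ibrutinib was 0.995 bases, and no length difference could pass with 4 pairs. Where 1 of these changed a sign or a call the cause was not tested. The low counts of *Runx1* limit how well its transcripts can be told apart.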
